A study of Homo sapiens with 22 samples.

Results

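The genes described here encode the pore-forming and auxiliary subunits of the sodium, calcium, potassium and HCN channel families. They were taken from a table of raw RNA-seq counts by gene symbol: KCN genes, SCN genes, CACNA1, CACNA2D and CACNB genes, and HCN genes, kept where at least 10 counts were present in at least 3 of the 22 libraries. Of 35237 genes in the table, 131 carried a matching symbol and 91 of those (0.258% of the table) passed the count minimum. The 91 members were 8 sodium channel pore subunits, 2 sodium channel beta subunits, 7 calcium channel pore subunits, 4 alpha2delta and 4 calcium channel beta subunits, 25 pore subunits and 10 auxiliary subunits of voltage-gated potassium channels, 10 subunits of calcium- and sodium-activated potassium channels, 9 inward rectifiers, 9 tandem-pore (K2P) potassium channels and 3 HCN channels. The symbol rule is wider than voltage gating, since inward rectifiers, K2P channels and small-conductance calcium-activated channels open without a moving voltage sensor. CACNA1B, KCND3, KCNG2 and KCNK9 reached 10 counts in only 3 libraries and lie just inside the rule, and KCNE1, KCNG3, KCNJ9 and KCNK12, with 2 such libraries, lie just outside it.

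The libraries came from 2 human neuroblastoma cell lines that the submitters class as mesenchymal, SK-N-AS and GIMEN. Untreated SK-N-AS cells (n = 4) were kept in DMEM with 10% FBS. The group S1D4 (n = 4) had 4 days of 5 µM PP121, a dual inhibitor of tyrosine kinases and PI3K-family kinases, in DMEM with 1% FBS. S1D4 cells were then moved to Neurobasal medium with B27 and given 5 µM PP121 together with 100 nM bufalin, a cardiac glycoside that inhibits the sodium pump, and were sampled after 4 days of that combination as S2D4 (n = 4) and after 30 days as S2D30 (n = 4). Untreated GIMEN cells (n = 3) were kept in RPMI with 10% FBS, and GIMEN D30 cells (n = 3) had 30 days of 2.5 µM PP121 with 10 nM bufalin in RPMI with 1% FBS. Drug and medium changed together in every comparison with untreated cells. The doses, schedules and media differed between the lines, with no stage of PP121 alone given for GIMEN, and each line is a single tumour-derived line. The labels do not say that replicates came from separate cultures, so p-values measure the spread between these libraries, which may be technical.

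Voltage-gated sodium channels carry the rising phase of the action potential, voltage-gated potassium channels repolarize the membrane, and voltage-gated calcium channels turn depolarization into calcium entry. KCNH and KCNQ channels open near the resting potential and damp repeated firing, K2P and inward rectifier channels set the resting potential, and HCN channels carry a cation current that opens on hyperpolarization. Sympathetic neurons, the normal relatives of neuroblastoma cells, use sodium channels such as SCN9A and SCN3A and M-current channels such as KCNQ3 and KCNQ5 to set their firing.

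Many potassium channel genes carry a recognizable short run of codons for the selectivity filter, the part of the pore that passes potassium and not sodium. Coding sequences from GENCODE v29 were searched in frame, on the coding strand only, for the canonical potassium channel filter signature, the form that 5 of the 8 sequences printed here carry. It was found in 126 of 19687 coding sequences (0.64%) and in 33 of the 50 potassium channel pore members (66%), and in none of the 7 KCNH members. The KCNH form of the signature, which the other 3 printed sequences carry, was found in 13 of the 19687 coding sequences (0.066%), 7 of them the 7 KCNH members. The remaining pore members, KCNJ8, KCNJ11, KCNJ14, KCNK2, KCNK13, KCNK15, KCNN1, KCNN2, KCNN3 and KCNT2, matched neither form. The sequences below set 3 KCNH channels beside 5 described channels that carry the canonical form, with the 15 filter bases in capitals and 15 bases of coding sequence on each side.
KCNH2: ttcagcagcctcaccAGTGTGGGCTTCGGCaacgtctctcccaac
KCNH8: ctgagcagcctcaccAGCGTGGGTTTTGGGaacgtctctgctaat
KCNH1: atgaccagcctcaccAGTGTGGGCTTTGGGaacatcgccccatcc
KCNQ5: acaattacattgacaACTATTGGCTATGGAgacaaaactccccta
KCNG1: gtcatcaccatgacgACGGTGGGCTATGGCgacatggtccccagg
KCNMA1: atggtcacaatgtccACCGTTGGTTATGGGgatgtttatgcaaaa
KCNN4: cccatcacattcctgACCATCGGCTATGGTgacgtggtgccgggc
KCNK1: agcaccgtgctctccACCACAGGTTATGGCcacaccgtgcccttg
A match is a description of these letters and was not related to the direction in which a gene moved. On GRCh38 in GENCODE v29, KCNH2 is at chr7:150944961-150978315 on the minus strand, KCNG1 at chr20:51003656-51023129 on the minus strand and KCNMA1 at chr10:76869601-77638369 on the minus strand. KCNQ5 is at chr6:72621792-73198851 on the plus strand, KCNN4 at chr19:43766533-43781261 on the minus strand and KCNK1 at chr1:233614004-233672512 on the plus strand. SCN9A, a sodium channel gene, is at chr2:166195185-166376001 on the minus strand.

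Total counts per library ranged from 16456484 to 37506800. Levels are counts scaled to library size (CPM) across all 22 libraries, and differences are log2 fold changes from edgeR's quasi-likelihood test, called at a Benjamini-Hochberg adjusted p under 0.05 over all genes tested. In S2D4, replicate 4 stood apart: for 46 of the 53 members with a mean of at least 1 CPM it lay outside the range of the other 3 libraries (86.8%, against 84.9% of all genes at that level), and 30 of those 46 (65.2%, against 57.8% of all such genes) lay on the side of S1D4. Among 10 adrenergic neuroblastoma markers the summed level was lowest in S2D30 libraries, at 315 to 406 CPM, against 771 to 1410 in S2D4, 1610 to 1890 in S1D4 and 2150 to 2390 without treatment. In GIMEN it was 1130 to 1150 CPM untreated and 772 to 895 at D30, with PHOX2A and TH at 3 counts or fewer in both groups. The summed level of 10 mesenchymal markers was 1410 to 2130 CPM in untreated SK-N-AS and 3380 to 4030 in S2D30, and 48200 to 49500 in untreated GIMEN and 21600 to 24600 at D30. Muscle, Schwann cell and endothelial lists summed to at most 30.4 CPM in any library. A list of 5 epithelial markers summed to 39.8 to 128 CPM without treatment in SK-N-AS, then 93.5 to 134 (S1D4), 91.3 to 177 (S2D4) and 96.9 to 107 (S2D30), and in GIMEN it summed to 264 to 274 CPM before and 136 to 160 after treatment, with EPCAM and CDH1 under 1 CPM in every library. Of these 5 markers, 2 had a mean of at least 1 CPM in each SK-N-AS group and in GIMEN D30, and 3 did in untreated GIMEN. A leukocyte list summed to 163 to 205 CPM in untreated SK-N-AS and 4.44 to 7.27 in S2D30, with CD3E and TYROBP at 3 counts or fewer in both. Of its 8 genes, 2 had a mean of at least 1 CPM in each of these groups. The part that these shifts in cell state play in the channel results was not tested, and in bulk RNA fewer cells of a type and less RNA per cell cannot be told apart.

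Channel expression in SK-N-AS changed in level and makeup across the treatment, and at both stages with bufalin more members fell than rose. Summed over the 91 members, the level was 1068 ± 107 CPM (SD, n = 4) in untreated cells, 1061 ± 31.9 in S1D4, 757 ± 48.6 in S2D4 and 622 ± 17.3 in S2D30. Of 81 members tested at S1D4, 14 were higher and 12 lower than in untreated cells (32.1% called in either direction, against 40.1% of all genes; 17.6% of all genes were higher and 22.4% lower). At S2D4, 21 were higher and 33 lower (66.7% called, against 63.1% of all genes, with 30.9% higher and 32.2% lower). At S2D30, 23 were higher and 37 lower (74.1%, against 70.3% of all genes, with 33.8% higher and 36.5% lower). The members' median log2 change was 0.06 at S1D4, -0.35 at S2D4 and -0.57 at S2D30, beside -0.01, -0.02 and -0.03 over all genes. The share of members called was thus near that of all genes at each point. These 3 comparisons share the untreated libraries. The step from S1D4 to S2D4, where bufalin and the new medium were added, left 10 members higher and 35 lower (55.6% called, against 55.1% of all genes, of which 28.3% were higher and 26.8% lower), with a median of -0.42 beside 0.02 over all genes. From S2D4 to S2D30, 20 were higher and 23 lower (53.1%, against 51.3%, with 24.4% higher and 26.9% lower). Without S2D4 replicate 4 the counts were 21 and 36 at S2D4, 12 and 39 for the step from S1D4, and 23 and 21 for the step to S2D30. Of the 16098 genes then tested, 5020 were higher and 5520 lower at S2D4. The steps gave 4656 and 4713 from S1D4, and 4268 and 4376 to S2D30. Without untreated replicate 4, whose summed member level was the highest of its group, the member counts were 16 and 11 at S1D4, 23 and 31 at S2D4 and 26 and 34 at S2D30. Of the 16047 genes then tested, 3258 were higher and 3614 lower at S1D4, 5156 and 5119 at S2D4, and 5689 and 5763 at S2D30.

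**Figure D1:**
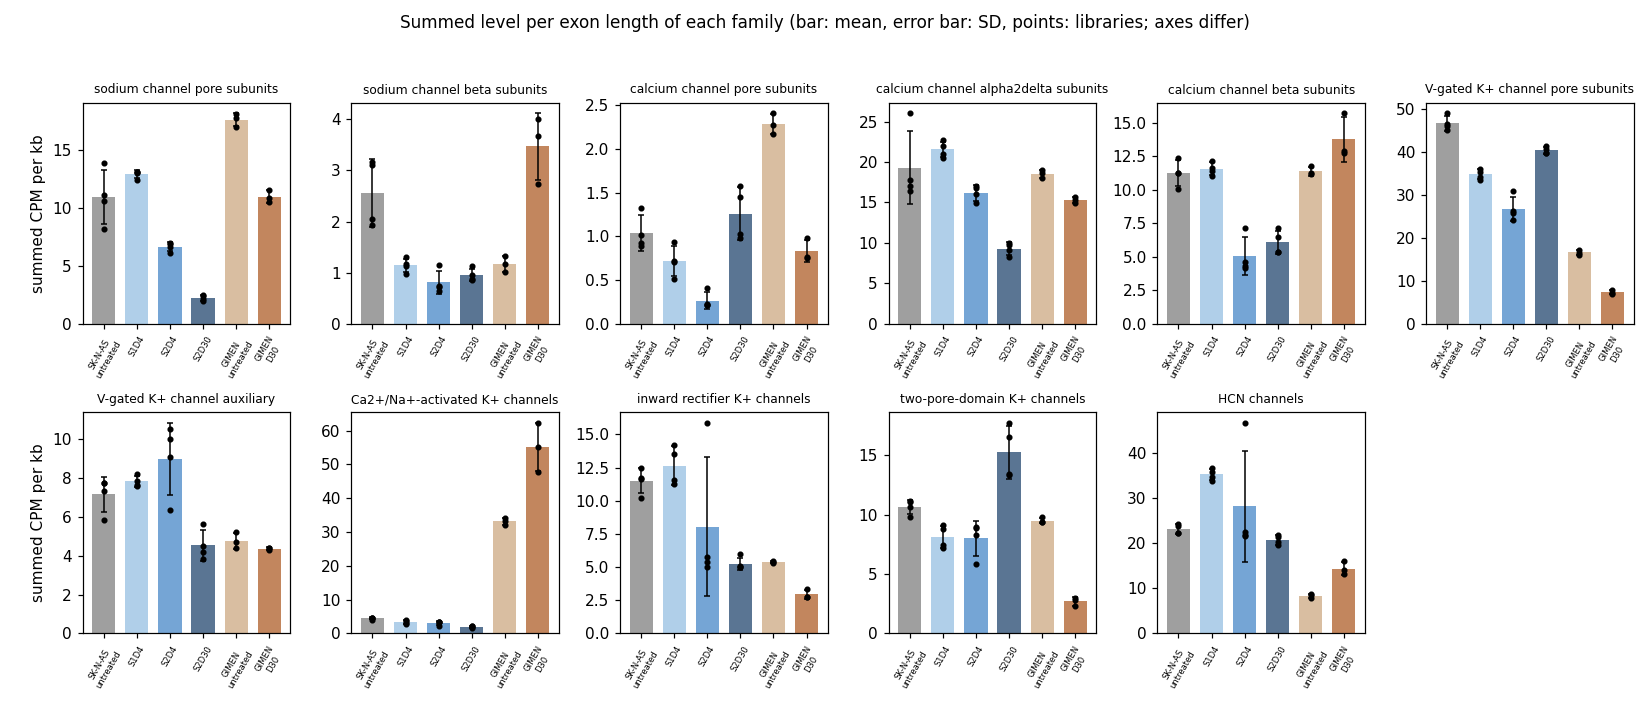
Summed level of each channel family in CPM per kb of exon, by group, with bars for means, error bars for SD and points for single libraries; each panel has its own axis. The sodium channel pore panel falls from 10.97 in untreated SK-N-AS to 2.25 in S2D30, and the panel of calcium- and sodium-activated potassium channels stands at 33.2 in untreated GIMEN against 4.47 in untreated SK-N-AS.

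Sodium channel pore genes were at their lowest in S2D30 among the SK-N-AS groups. Levels per kb divide by every annotated exon of a gene, a length that can exceed its expressed transcript (43.16 kb for CACNA1A, 35.64 for KCNMA1). Rankings of genes and families on this scale depend on that length. On it, the 8 pore subunits summed to 10.97 ± 2.34 CPM per kb (SD, n = 4) in untreated cells, 12.93 ± 0.349 in S1D4, 6.66 ± 0.4 in S2D4 and 2.25 ± 0.241 in S2D30. SCN9A, the Nav1.7 channel of sympathetic and pain-sensing neurons, led the family in the first 3 groups and SCN8A led it in S2D30 at 1.31 CPM per kb. SCN9A measured 124, 117, 92.4 and 156 CPM in the untreated libraries, 131, 126, 141 and 142 in S1D4, 54.1, 53.6, 56.5 and 37.7 in S2D4, and 9.52, 8.63, 8.81 and 10.1 in S2D30. The untreated and S1D4 ranges overlapped, every S2D4 library lay below both, and every S2D30 library lay below S2D4. Between S2D4 and S2D30 alone, 50.4% of all genes had groups that did not overlap, in either direction. SCN9A fell by 1.28 ± 0.141 (SE) on the log2 scale at S2D4 (adjusted p = 7.2e-07) and by 3.71 ± 0.158 at S2D30 (adjusted p = 4.62e-12), while the S1D4 difference was 0.14 (adjusted p = 0.441).

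SCN2A, the Nav1.2 channel of developing axons, stood at 13, 10.4, 13.7 and 16.1 CPM in untreated cells and at 6.57, 4.46, 5.22 and 2.47 in S2D4. It was down to 1.12, 1.60, 0.709 and 1.80 CPM in S2D30, a fall of 3.33 ± 0.297 on the log2 scale (adjusted p = 3.23e-08). SCN3A, the Nav1.3 channel of embryonic neurons, took another course. It measured 3.43, 3.42, 3.01 and 4.59 CPM untreated and 11.9, 9.88, 6.61 and 6.26 in S1D4, all 4 above the untreated range, a rise of 1.26 ± 0.389 (adjusted p = 0.0165) that missed the threshold without S1D4 replicate 1 (1.07, adjusted p = 0.0555). By S2D30 SCN3A was between 0.0886 and 0.349 CPM, a fall of 4.19 ± 0.539 from untreated cells (adjusted p = 2.7e-06). SCN7A, an atypical sodium channel that senses sodium, was 4.08 to 4.42 CPM in S1D4 against 0.51 to 1.08 untreated, a rise of 2.55 ± 0.563 (adjusted p = 0.0018). In S2D4 it was 3.08 to 3.48 in replicates 1 to 3 and 0.192 in replicate 4.

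SCN8A, the Nav1.6 channel of mature axon initial segments, was the pore subunit called higher at both bufalin stages. It measured 10.7, 11.3, 6.13 and 17.2 CPM in untreated cells, 23.2, 21.1, 25.4 and 31.9 in S2D4, and 21.1, 19.2, 16.1 and 21.6 in S2D30. The S2D4 libraries all lay above the untreated range, as 50.8% of all genes had no overlap between these groups, and the S2D30 range overlapped it at untreated replicate 4. The rises were 1.15 ± 0.22 (adjusted p = 0.000244) and 0.79 ± 0.22 (adjusted p = 0.00438). Of the beta subunits, which set the gating and surface level of the pore, SCN3B rose at every stage. SCN3B went from 0.486 to 1.47 CPM untreated to 3.11 to 4.22 in S1D4, and its differences from untreated cells were 1.75 at S1D4, 1.88 at S2D4 and 1.48 at S2D30.

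Calcium channel pore subunits were low in SK-N-AS on the per-kb scale, at a summed 1.04 ± 0.202 CPM per kb untreated and 1.26 ± 0.302 in S2D30, and their makeup changed. These sums count 43.16 kb of exon for CACNA1A, against 9.709 for CACNA1G. CACNA1A encodes Cav2.1, the P/Q-type channel of presynaptic terminals. It stood at 2.22, 2.73, 1.90 and 2.73 CPM in untreated cells and between 1.89 and 3.66 in S1D4 and S2D4. In S2D30 it was 16.2, 10.1, 9.79 and 16.1 CPM, every library above all of the earlier ones, a rise of 2.45 ± 0.238 (adjusted p = 9.44e-08). CACNA1E, the R-type Cav2.3 channel, was nearly silent in untreated cells, at 0.211, 0.173, 0 and 0.0901 CPM. It measured 7.32, 10, 0.968 and 3.11 CPM in S1D4, fell back to 0.0544 to 0.289 in S2D4 and measured 6.03, 3.79, 2.92 and 4.53 in S2D30. The S1D4 and S2D30 libraries all lay above the untreated and S2D4 ranges, with a wide spread inside S1D4. CACNA1E rose by 5.35 ± 0.7 at S1D4 (adjusted p = 1.85e-05) and by 5.05 ± 0.7 at S2D30 (adjusted p = 6.43e-06), and its S2D4 difference was 0.64 (adjusted p = 0.554).

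CACNA1G, a low-threshold T-type channel, was lower in both S1D4 and S2D4 than in untreated cells and came back by S2D30. It measured 7.68, 8.53, 7.73 and 11.3 CPM untreated, 2 to 3.82 in S1D4, 0.74, 0.762, 0.326 and 1.96 in S2D4, and 6.25, 3.94, 5.09 and 8.25 in S2D30. It fell by 3.16 ± 0.392 at S2D4 (adjusted p = 2.74e-06), or by 3.86 without replicate 4 of that group, and from S2D4 to S2D30 it rose by 2.59 ± 0.39, or by 3.29 without that library. At S2D30 its difference from untreated cells was -0.57 (adjusted p = 0.148), and with those 2 groups fitted alone it was called lower (-0.54, adjusted p = 0.0454). CACNA1C, the L-type Cav1.2 channel, stayed under 1 CPM in every SK-N-AS group. It went from 0.173 to 0.42 CPM untreated to 0.641 to 0.798 in S2D30, a rise of 1.31 ± 0.433 (adjusted p = 0.0127). CACNA1H, another T-type channel, held 0 to 3 counts in each untreated library and 10 to 12 in each S2D30 library, 11.6 times the untreated level from summed counts (95% counting interval 4.61 to 37.4). Its fitted rise of 3.39 on the log2 scale was 4.10 without untreated replicate 4. CACNA1H reached 10 counts in 5 libraries, among them all of S2D30, and would miss the count minimum without that group.

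The auxiliary calcium channel subunits, which carry the pore to the surface and raise its current, were above the pore genes in summed level per kb. In untreated SK-N-AS the alpha2delta genes summed to 19.31 ± 4.52 CPM per kb (SD, n = 4) and the beta genes to 11.24 ± 0.969, though single genes such as CACNB2 (0.608) lay below the leading pore gene CACNA1G (0.907). CACNA2D1, an alpha2delta subunit bound by gabapentin, was the second most abundant member per kb in untreated SK-N-AS at 11.94 ± 3.33 CPM per kb. Its libraries measured 93.7, 87.7, 96.8 and 152 CPM untreated, 110, 109, 113 and 80.1 in S2D4, and 47.2, 48.1, 45.3 and 45.9 in S2D30. The S2D30 libraries lay below all others of the line, a fall of 1.19 ± 0.156 (adjusted p = 3.18e-06). Without untreated replicate 4 the S1D4 difference, 0.11 with it (adjusted p = 0.605), was 0.34 (adjusted p = 0.0202). CACNA2D2 fell earlier and further, from 34.5, 35.7, 39.3 and 53.2 CPM to 26.1, 29.4, 24.9 and 25.4 in S1D4 and then to 3.70, 4.41, 4.38 and 3.72 in S2D4 and 3.06 to 3.69 in S2D30. Its fall at S2D30 was 3.59 ± 0.152 (adjusted p = 4.28e-12). CACNA2D3 rose from 3.33 to 5.17 CPM to 19.7 to 21.7 in S1D4 and was 12.4 to 19.4 in S2D30, an increase of 2.28 ± 0.191 at S1D4 (adjusted p = 2.52e-07) and 1.97 ± 0.19 at S2D30 (adjusted p = 8.74e-08). The 3 alpha2delta genes thus took 3 courses in the same libraries. CACNB3, the most abundant beta subunit per kb in untreated cells, measured 45.8, 55.4, 54.9 and 56.3 CPM untreated, 14.7, 14.5, 15.7 and 21.6 in S2D4, and 21.8, 17.7, 18.4 and 23.7 in S2D30. It fell by 1.68 ± 0.142 at S2D4 (adjusted p = 3.2e-08) and by 1.37 ± 0.14 at S2D30 (adjusted p = 1.85e-07), with no library of either group in the untreated range. CACNB2 fell by 2.41 ± 0.259 at S2D30 (adjusted p = 3.16e-07), from 4.71 to 6.17 CPM to 0.684 to 1.51. Of its exon length, 13% lies opposite another gene, and the strand of the counting is not given. Of the 4 beta genes tested at S2D30, 2 were lower and 2 not called, where 36.5% of all genes were lower and 33.8% higher.

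**Figure D2:**
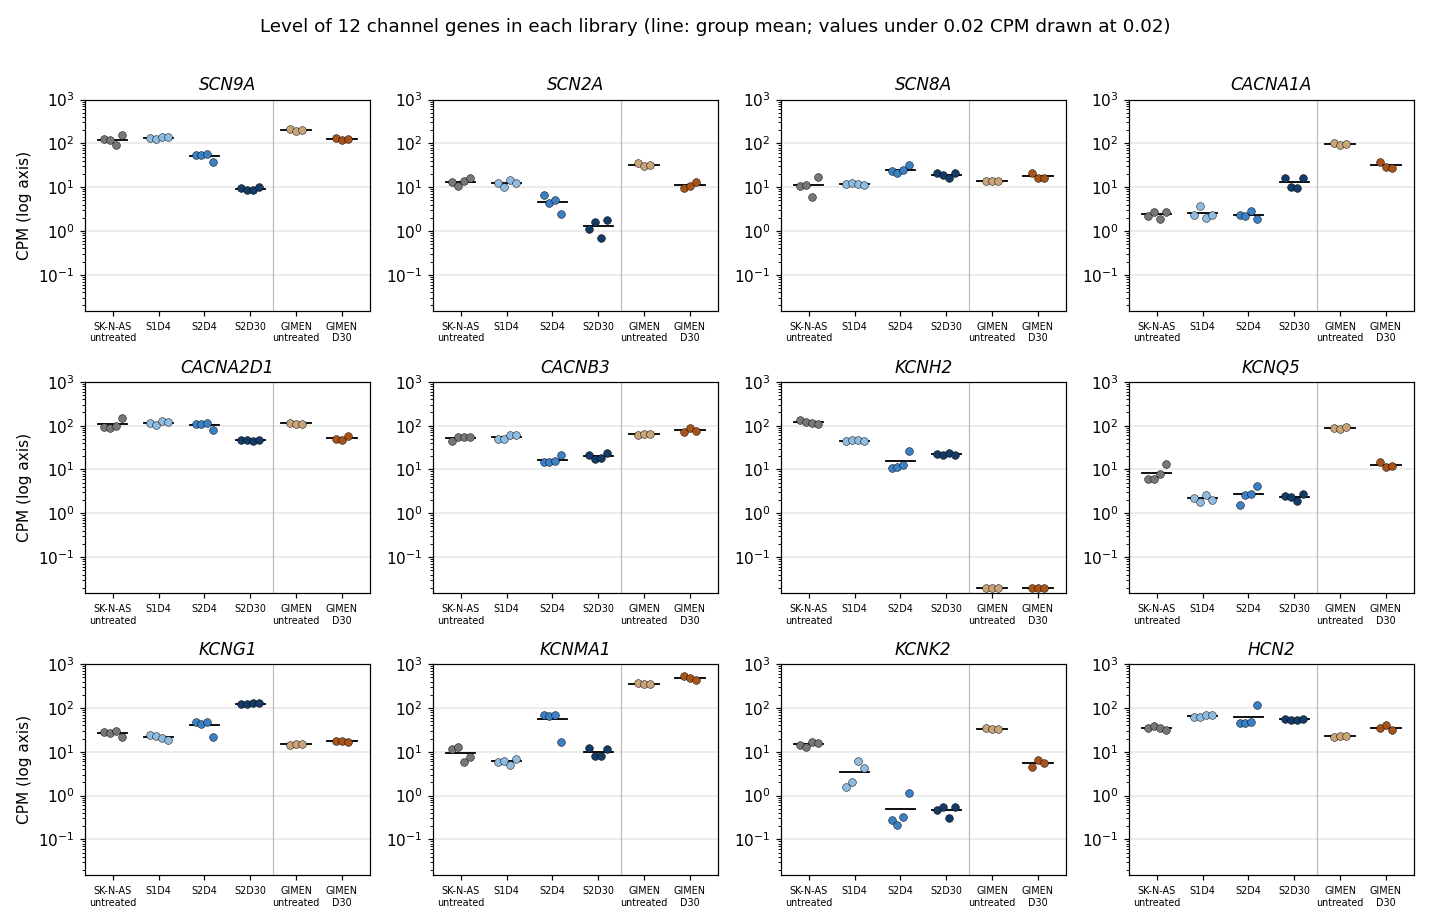
CPM of 12 channel genes in each library on a log axis, 6 groups per panel, with a line at each group mean; values under 0.02 CPM are drawn at 0.02. In S2D30 the libraries of SCN9A sit between 8.63 and 10.1 and those of KCNG1 between 121 and 126, and KCNH2 is at 0 in all 6 GIMEN libraries.

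Voltage-gated potassium channels changed their leading members. The 25 pore subunits summed to 46.7 ± 1.69 CPM per kb (SD, n = 4) untreated, 34.8 ± 1.13 in S1D4, 26.8 ± 2.86 in S2D4 and 40.4 ± 0.762 in S2D30, so the S2D30 sum lay between those of S1D4 and untreated cells, with other genes leading it. KCNH2 led the untreated cells at 20.4 ± 1.85 CPM per kb and KCNG1 led S2D30 at 22.99 ± 0.471. At S2D30, 9 of the 22 Kv pore subunits tested were higher, 10 lower and 3 not called, where 33.8% of all genes were higher and 36.5% lower.

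KCNH2, or hERG, is a rapidly inactivating channel that repolarizes heart muscle and is expressed in many neuroblastomas. It measured 134, 122, 117 and 108 CPM in untreated cells, 45.1, 47.8, 45.9 and 44.3 in S1D4, 10.6, 11.3, 12.6 and 26.9 in S2D4, and 23.1, 21.9, 24.1 and 21.6 in S2D30. The untreated, S1D4 and later libraries formed 3 separate ranges. It fell by 1.39 ± 0.207 at S1D4 (adjusted p = 6.45e-05), by 2.96 ± 0.221 at S2D4 (adjusted p = 7.32e-09) and by 2.39 ± 0.215 at S2D30 (adjusted p = 3.75e-08). From S2D4 to S2D30 its difference was 0.57 ± 0.212 (adjusted p = 0.0331). That call was lost without any of replicates 1 to 3 of S2D4 or of S2D30 (adjusted p 0.0535 to 0.109), and with the 2 groups fitted alone (adjusted p = 0.0965), and without S2D4 replicate 4 the difference was 1.00 (adjusted p = 6.77e-08).

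Among M-current genes, KCNQ5 fell at every stage and KCNQ3 rose at S2D30 from a level near 0. KCNQ5, an M-current subunit, fell already at S1D4, from 6.17, 6.06, 7.97 and 13.3 CPM to 2.24, 1.85, 2.57 and 2.04 (-1.94 ± 0.297, adjusted p = 8.11e-05), and was 1.86 to 2.82 in S2D30. KCNQ3, another M-current subunit, held 0 to 3 counts in each untreated library and reached 1.5 to 3.06 CPM in S2D30, 50.7 times the untreated level from summed counts (95% counting interval 21.4 to 158). Its fitted rise of 5.48 on the log2 scale was 6.41 without untreated replicate 3. KCNQ3 reached 10 counts in 4 libraries, those of S2D30, so the count minimum kept it only through the group where it is high.

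KCNC1 and KCNC4, fast Kv3 channels of quickly firing neurons, moved apart. KCNC1 measured 10, 11.9, 7.97 and 10.6 CPM untreated, 15 to 17.6 in S1D4, 1.71 to 3.65 in S2D4 and 0.0431 to 0.349 in S2D30, a fall of 5.32 ± 0.349 at S2D30 (adjusted p = 7.46e-10). Its S1D4 rise of 0.67 (adjusted p = 0.0382) was lost without any of untreated replicates 1 and 3 and S1D4 replicates 1 to 4 (adjusted p 0.0588 to 0.111). KCNC4 rose from 7.54 to 10.7 CPM to 16.9 to 19.2 in S2D30 (1.02 ± 0.137, adjusted p = 4.52e-06).

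KCNG1, KCNF1 and KCNS3 encode silent subunits, which form no channel alone and change the behaviour of the Kv channels they join. KCNG1 measured 28.4, 26.2, 29.4 and 21.4 CPM untreated, 18.9 to 23.7 in S1D4, 46.5, 44.1, 47 and 21.5 in S2D4, and 121, 126, 126 and 126 in S2D30. S2D4 replicate 4 lay in the untreated range and the S2D30 libraries lay far above every other one. KCNG1 rose by 2.26 ± 0.187 at S2D30 (adjusted p = 1.27e-08). KCNF1 rose from 0 to 0.15 CPM to 2.18 to 3.14 (4.81 ± 0.562, adjusted p = 8.96e-07) and KCNS3 from 0.15 to 0.681 to 2.93 to 4.59 CPM (3.24 ± 0.427, adjusted p = 3.57e-06). KCNF1 reached 10 counts in 8 libraries, none of them untreated SK-N-AS, so the count minimum kept it through other groups. Among the KCNH genes other than KCNH2, KCNH1 (Eag1), which is found in many tumours, rose from 0.52 to 1.44 CPM to 4.03 to 4.99 at S2D30 (2.23 ± 0.308, adjusted p = 6.39e-06); 36.9% of its exon length lies opposite another gene. KCNH8, a neuronal Elk channel, was already higher at S1D4, at a mean of 11.95 CPM (1.04 ± 0.309, adjusted p = 0.0127). In S2D4 it measured 15, 13.9, 12.8 and 39 CPM, against 3.89 to 7.36 untreated. The S2D4 rise was 1.80 ± 0.311 (adjusted p = 9.14e-05), or 1.25 without replicate 4. By S2D30 KCNH8 was 2.30 to 3.51 CPM. Of the 8 auxiliary Kv subunits tested at S2D30, 1 was higher and 5 were lower, beside 33.8% and 36.5% of all genes. KCNAB3, a cytoplasmic beta subunit, was at its highest of the 4 SK-N-AS groups in S2D4, at 30.1, 24.5, 26 and 12.9 CPM, against 7.47 to 10.3 untreated and 3.98 to 9.19 in S2D30. Its S2D4 rise was 1.43 ± 0.253 (adjusted p = 0.000117) and its fall from S2D4 to S2D30 was -1.83 ± 0.259 (adjusted p = 2e-05).

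Among calcium- and sodium-activated potassium channels, 1 of 10 was higher and 5 were lower at S2D30, beside 33.8% and 36.5% of all genes. KCNMA1, the large-conductance BK channel opened by voltage and calcium together, rose and came back. It measured 11.4, 12.6, 5.83 and 7.45 CPM untreated, 5.05 to 6.92 in S1D4, 68.6, 65.1, 70.4 and 16.6 in S2D4, and 11.9, 8.08, 8.19 and 11.4 in S2D30. All 4 S2D4 libraries lay above every other SK-N-AS library, replicate 4 by the least. The S2D4 rise was 2.55 ± 0.354 (adjusted p = 9.45e-06), the later fall -2.46 ± 0.354 (adjusted p = 2.44e-05), and the S2D30 difference from untreated cells 0.10 (adjusted p = 0.818). KCNN4, the intermediate-conductance channel of blood cells and many tumours, rose from 0.0486 to 0.158 CPM to 3.53, 1.95, 1.42 and 3.81 at S2D30 (4.67 ± 0.467, adjusted p = 1.38e-07). KCNT2, a sodium-activated channel, fell from 5.83 to 8.95 CPM to 0.299 to 0.431 (-4.18 ± 0.252, adjusted p = 2.63e-10), and KCNMB4, a neuronal BK beta subunit, fell from 8.57 to 12.6 CPM to 0.77 to 1.90 (-2.95 ± 0.265, adjusted p = 3.58e-08).

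Among inward rectifiers and K2P channels, which hold the resting potential, KCNJ2 and KCNK2 fell and KCNK1 rose by S2D30. KCNJ2 (Kir2.1) was 8.05 to 15.6 CPM untreated and 1.15 to 1.90 in S2D30, a fall of 2.66 ± 0.411 (adjusted p = 2.15e-05); in S2D4 it was 1.74 to 1.90 in replicates 1 to 3 and 7.60 in replicate 4. KCNJ8, a pore subunit of ATP-sensitive channels, fell from 7.36 to 9.58 CPM to 2.50 to 3.37 (-1.55 ± 0.252, adjusted p = 3.73e-05). KCNK2 (TREK-1), a leak channel opened by stretch and lipids, measured 14.2, 13, 16.5 and 15.6 CPM untreated, 1.60, 1.99, 6.19 and 4.17 in S1D4, 0.277, 0.218, 0.326 and 1.15 in S2D4, and 0.474, 0.549, 0.31 and 0.556 in S2D30. Its treated libraries all lay below the untreated range, with falls of 2.08 ± 0.397 at S1D4 (adjusted p = 0.000564), 4.79 at S2D4 (5.72 without replicate 4) and 4.95 ± 0.486 at S2D30 (adjusted p = 1.1e-07). KCNK1 (TWIK-1) measured 15.2, 12.3, 12.9 and 11.5 CPM untreated and 38.5, 49.4, 54 and 36.6 in S2D30, a rise of 1.80 ± 0.209 (adjusted p = 8.2e-07). At 12.3 ± 2.31 CPM per kb KCNK1 was the third most abundant member in S2D30.

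Of the HCN channels, HCN2 was higher at every stage. HCN2, a slowly opening channel sensitive to cyclic AMP, measured 34, 38, 34.8 and 30.9 CPM untreated, 62.3, 63, 68.9 and 69.4 in S1D4, 45.9, 45.6, 47.3 and 115 in S2D4, and 55.8, 54, 53 and 55.3 in S2D30. All treated libraries lay above the untreated range, with rises of 0.94 ± 0.227 (adjusted p = 0.0036), 0.88 ± 0.227 (adjusted p = 0.00296) and 0.68 ± 0.227 (adjusted p = 0.014) in stage order. Replicate 4 set the S2D4 mean. Without it HCN2 was lower in S2D4 than in S1D4 (-0.52, adjusted p = 3.03e-05; -0.06 with it, adjusted p = 0.841) and higher in S2D30 than in S2D4 (0.25, adjusted p = 0.012; -0.20 with it, adjusted p = 0.476).

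Smaller members added to the same picture. KCND1 (Kv4.1), an A-type channel, rose at S1D4 from 6.56 to 10.4 CPM to 16.9 to 24.8 (1.24 ± 0.206, adjusted p = 0.000168). At the same stage KCNJ6, a G protein-gated inward rectifier, fell by 1.64 ± 0.397 (adjusted p = 0.00348), KCNE4, an inhibitory auxiliary subunit, by 1.15 ± 0.324 (adjusted p = 0.0094) and CACNB4 by 0.84 ± 0.244 (adjusted p = 0.0115). KCNN3 (SK3), which carries a slow afterpotential, went from 3.46 to 5.85 CPM untreated to 0.481 to 0.559 in S2D4, a fall of 3.09 ± 0.397 (adjusted p = 4.09e-06), and was back at 1.94 to 2.97 in S2D30. KCNN2 (SK2) fell from S1D4 to S2D4 by 3.77 ± 0.525 (adjusted p = 1.55e-05), or by 4.54 without S2D4 replicate 3, and KCND2 (Kv4.2) by 2.52 ± 0.493 (adjusted p = 0.000396). KCNT1, a sodium-activated channel, rose at S2D4 by 3.40 ± 0.66 (adjusted p = 0.000275), or by 2.70 without replicate 4, which held 4.10 CPM against 0.971 to 1.35 in the others. KCNJ5, a partner of KCNJ6, rose at S2D4 by 1.61 ± 0.352 (adjusted p = 0.000798) to 0.925 to 1.26 CPM. From S2D4 to S2D30 KCNJ15 (Kir4.2) rose by 2.29 ± 0.366 (adjusted p = 6.65e-05) to 1.55 to 2.69 CPM, and KCNH6 (Erg2) fell by 2.35 ± 0.376 (adjusted p = 6.75e-05) to 0.177 to 0.848 CPM.

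**Figure D3:**
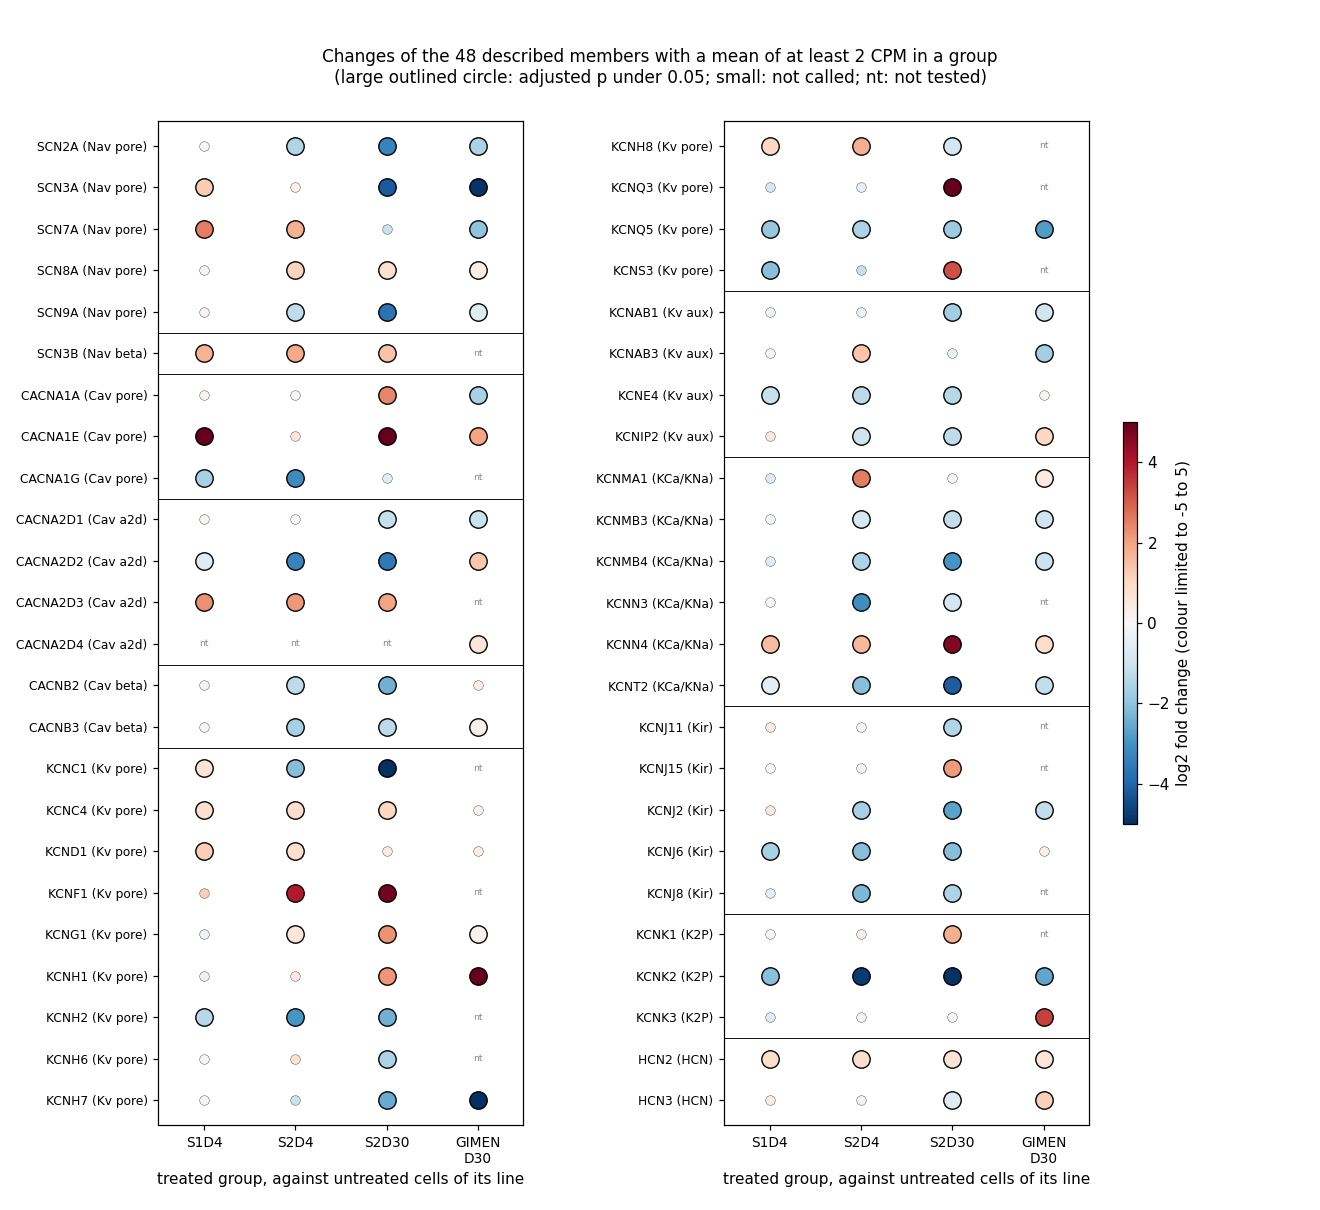
Log2 fold changes of the 48 members described in the text that had a mean of at least 2 CPM in some group, a row per gene by family and a column per treated group against untreated cells of its line; colour gives direction and size, large outlined circles are called at an adjusted p under 0.05, small ones are not, and nt marks genes not tested. KCNK2 is lower in all 4 columns, at -2.08, -4.79, -4.95 and -2.62.

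In GIMEN as many members rose as fell by D30, and the share called was near that of all genes. In untreated GIMEN, 36 members had a mean of at least 1 CPM and 12 had 0 counts in every library. Of 45 members tested at D30, 16 were higher and 16 lower than in untreated GIMEN (71.1% called, against 71.4% of all genes, with 35.5% higher and 36.0% lower), and the median log2 change was 0.13, beside 0.02 over all genes. The summed member level was 1281 ± 15.4 CPM (SD, n = 3) untreated and 1221 ± 86.7 at D30. Of 5 sodium channel pore subunits tested, 4 fell and SCN8A was higher. SCN9A went from 208, 197 and 202 CPM to 133, 122 and 126, a fall of 0.67 ± 0.0598 (adjusted p = 1.29e-06). SCN2A went from 35.6, 30.7 and 32.1 to 9.64, 10.4 and 13.2 CPM, a fall of 1.57 ± 0.124 (adjusted p = 4.84e-07). SCN3A went from 3.28, 3.34 and 5.29 CPM to 0.0592, 0.317 and 0, a fall of 4.92 ± 0.557 (adjusted p = 1e-05), or of 6.72 without D30 replicate 2. None of these 3 genes had overlapping groups, which also held for 75.0% of all genes tested in GIMEN. SCN8A went from 13.7 to 14 CPM to 15.9 to 20.8 (0.36, adjusted p = 0.0141), a call lost without D30 replicate 1 (0.24, adjusted p = 0.0507) or untreated replicate 2 (0.34, adjusted p = 0.052).

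The calcium and potassium channels of GIMEN moved in both directions. CACNA1A fell from 100, 90.8 and 95.4 CPM to 38.5, 28.3 and 27.4 (-1.61 ± 0.109, adjusted p = 1.38e-07). CACNA2D1 fell from 117, 111 and 110 CPM to 50, 48.2 and 58 (-1.11 ± 0.0775, adjusted p = 1.71e-07), while CACNA2D4, an alpha2delta gene best known from the retina, rose from 44.8, 42.2 and 47.3 CPM to 73.9, 72 and 65.8 (0.65 ± 0.0703, adjusted p = 6.52e-06). By D30 CACNA2D4 was the leading alpha2delta member of GIMEN at 9.24 CPM per kb. KCNQ5, which led the Kv genes of untreated GIMEN at 11.7 CPM per kb, fell from 89, 84.3 and 92.3 CPM to 14.5, 11.5 and 12.3 (-2.80 ± 0.0885, adjusted p = 2.77e-10). KCNK2 fell from 34.6, 33.4 and 33.6 CPM to 4.50, 6.53 and 5.59 (-2.62 ± 0.123, adjusted p = 7.06e-09). KCNN4 rose from 65.9, 73.4 and 70.6 CPM to 156, 137 and 115 (0.96 ± 0.0941, adjusted p = 3.05e-06) and KCNMA1 from 365, 356 and 348 CPM to 533, 490 and 438 (0.45 ± 0.0731, adjusted p = 0.000196). In each of these 7 genes the 2 groups did not overlap, as for 75.0% of all genes tested in GIMEN. Genes named for the size of their change had to meet that condition. KCNN4 and KCNMA1 were the leading members per kb at D30, at 39.96 ± 6.07 and 13.7 ± 1.34 CPM per kb. KCNH1 rose from 0.052 to 0.202 CPM to 6.33, 2.92 and 3.28 (4.99 ± 0.506, adjusted p = 3.92e-06), and KCNK3 (TASK-1) from 0.0575 to 0.208 CPM to 1.59 to 1.61 (3.43 ± 0.44, adjusted p = 2.77e-05). HCN3 rose from 6.19 to 7.77 CPM to 15.4 to 17.1 (1.19 ± 0.121, adjusted p = 4.04e-06) and KCNIP2, an auxiliary subunit of Kv4 channels, from 2.86 to 4.40 to 6.88 to 7.63 CPM (1.02 ± 0.182, adjusted p = 0.000391), both genes with more than 10% of their exon length opposite another gene. KCNAB3 fell from 4.95 to 6.21 CPM to 1.33 to 2.19 (-1.70 ± 0.24, adjusted p = 5.99e-05). KCNH7 (Erg3) went from 2.33 to 2.92 CPM to 1 count in each D30 library, a level 41.6 times lower from summed counts (95% counting interval 14 to 204).

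The 30-day changes of the lines shared some genes and differed in others. Of 44 members tested in both lines, 25 were called in both: 6 were higher in both, 12 lower in both, 2 higher in SK-N-AS and lower in GIMEN, and 5 the reverse. The 18 that moved the same way were 72% of the 25, against 79.1% of the 6998 genes called in both lines among 13088 tested in both. The 6 higher in both were CACNA1E, HCN2, KCNG1, KCNH1, KCNN4 and SCN8A. In GIMEN, KCNG1 went from 14.3 to 15.1 CPM to 16.4 to 18 (0.24, adjusted p = 0.0347), a call lost without any of untreated replicates 1 to 3 or D30 replicates 1 and 2 (adjusted p 0.063 to 0.104). HCN2 rose from 21.6 to 23.4 CPM to 31.9 to 40.3 (0.65 ± 0.094, adjusted p = 7.36e-05). The 12 lower in both were SCN2A, SCN3A, SCN9A, CACNA2D1, KCNAB1, KCNH7, KCNJ2, KCNK2, KCNMB3, KCNMB4, KCNQ5 and KCNT2; the GIMEN call of KCNMB3 (-0.98, adjusted p = 0.0282) was lost without untreated replicate 2 or 3 or D30 replicate 1 or 2 (adjusted p 0.0504 to 0.134). CACNA1A and CACNA1C were higher in SK-N-AS and lower in GIMEN, and CACNA2D2, CACNB3, HCN3 and KCNIP2 were among the 5 lower in SK-N-AS and higher in GIMEN.

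The difference between the 30-day changes, GIMEN minus SK-N-AS, was tested over 83 members, of which 26 were higher and 12 lower (45.8% called, against 49.7% of all genes, with 25.2% higher and 24.5% lower). SCN9A changed by -3.71 in SK-N-AS and -0.67 in GIMEN, a difference of 3.05 ± 0.181 (adjusted p = 9.16e-10). CACNA1A, 2.45 in SK-N-AS and -1.61 in GIMEN, differed by -4.05 ± 0.267 (adjusted p = 3.13e-09). CACNB3, -1.37 in SK-N-AS and 0.30 in GIMEN, differed by 1.68 ± 0.164 (adjusted p = 3.17e-07). CACNA2D2 differed by 4.97 ± 0.386 (adjusted p = 2.15e-08); its GIMEN rise from 0.52 to 0.759 CPM to 1.21 to 2.60 (1.36, adjusted p = 0.00855) was not called without D30 replicate 1 (0.93, adjusted p = 0.0603). For HCN2 the difference between the lines was -0.01 ± 0.133 (adjusted p = 0.98) and for CACNA2D1 0.10 ± 0.207 (adjusted p = 0.748), which does not show that the lines responded alike. Doses, schedule, medium and line cannot be told apart in these differences.

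**Figure D4:**
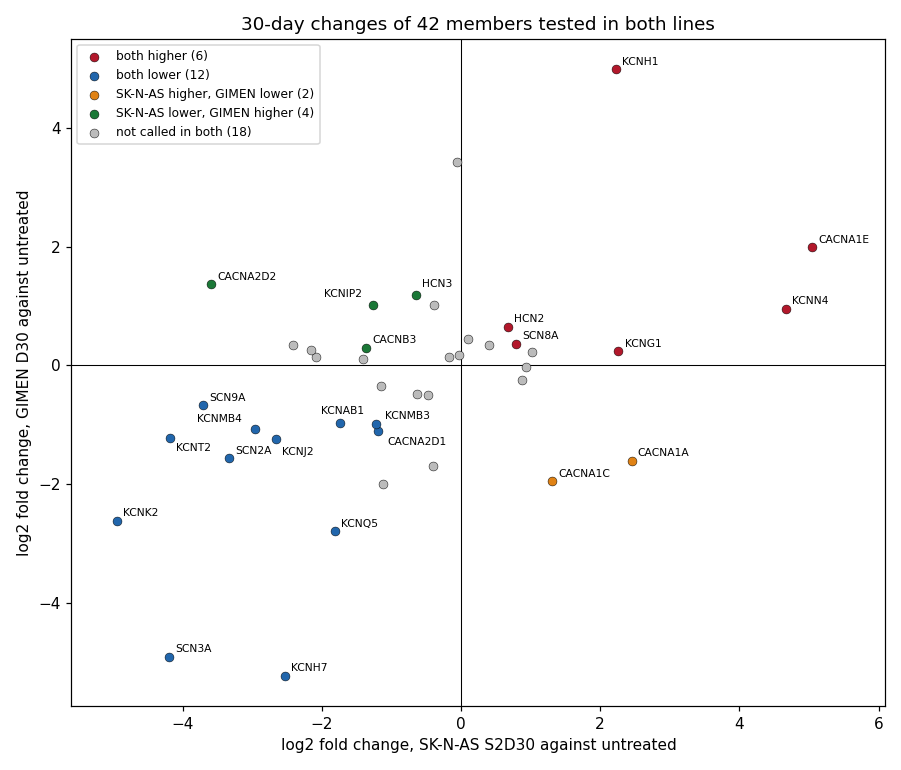
Log2 fold change at 30 days in SK-N-AS S2D30 (x axis) and GIMEN D30 (y axis) for 42 of the 44 members tested in both lines, each point a gene, coloured by whether it was called in both lines and in which directions. Of those called in both, 12 lie at the lower left and 6 at the upper right; CACNA1A, at 2.45 and -1.61, lies at the lower right.

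Before treatment the lines already carried different channels. Of 83 members tested, 11 were higher in GIMEN and 48 lower (71.1% called, against 73.9% of all genes, with 35.3% higher and 38.6% lower), with a median of -1.02 beside -0.05 over all genes. Of 24 Kv pore subunits, 17 were lower in GIMEN and 1, KCNQ5, was higher. KCNH2 was at 0 counts in all 6 GIMEN libraries and, against a floor of 3 counts per library, at least 750-fold lower than in untreated SK-N-AS. KCNJ8 and KCNH8, also at 0 counts in untreated GIMEN, were at least 52.8-fold and 36.1-fold lower. With 1 to 5 counts summed over the 3 GIMEN libraries, KCNK1 was 739 times lower (95% counting interval 132 to 29200), KCNC1 575 times (103 to 22700) and KCNJ11 126 times (53.8 to 388).

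Fewer channels were higher in GIMEN, and their differences ranged from small to very large. CACNB3 was higher by 0.27 (adjusted p = 0.0424), a call lost under upper-quartile scaling (0.11, adjusted p = 0.394), DESeq2's size factors or test, a model of all 22 libraries (adjusted p 0.0699 to 0.113), and without untreated SK-N-AS replicate 1 or 3 or any GIMEN replicate (adjusted p 0.0519 to 0.13). KCNMA1 was 348 to 365 CPM against 5.83 to 12.6 in SK-N-AS (5.26 ± 0.207, adjusted p = 4.91e-13), and KCNN4 65.9 to 73.4 against 0.0486 to 0.158 (9.33 ± 0.311, adjusted p = 5.98e-14). CACNA1A was 90.8 to 100 CPM against 1.90 to 2.73 (5.32 ± 0.201, adjusted p = 2.96e-13), KCNQ5 84.3 to 92.3 against 6.06 to 13.3 (3.41 ± 0.207, adjusted p = 1.47e-10), and CACNA2D4 was 570 times higher from summed counts (300 to 1250). CACNA2D4 reached 10 counts in 6 libraries, those of GIMEN, so the count minimum kept it only through the line where it is high. SCN9A was higher in GIMEN by 0.74 ± 0.12 (adjusted p = 3.12e-05) and SCN2A by 1.31 ± 0.18 (adjusted p = 4.69e-06). SCN8A did not differ by the test (0.29, adjusted p = 0.261), though without untreated SK-N-AS replicate 4 it did (0.56, adjusted p = 0.00915). CACNA2D1 differed by 0.07 ± 0.144 (adjusted p = 0.667), or by 0.29 without that library (adjusted p = 0.00204).

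Proteins that assemble with or regulate these channels were read from 6 lists of 59 genes outside the symbol rule. At S2D30, 11 of 40 tested were higher and 16 lower than in untreated SK-N-AS, and at GIMEN D30 14 of 31 were higher and 9 lower. Of all genes, 33.8% were higher and 36.5% lower at S2D30 (70.3% called), and 35.5% and 36.0% at GIMEN D30 (71.4% called), so the share of partners called was near that of all genes. Of the sodium channel scaffolds and FGF partners, 6 of 7 tested were lower at S2D30 and none was higher, and at GIMEN D30 3 were higher and 3 lower. ANK2, an ankyrin of the axonal membrane, fell from 42.1 to 88.9 CPM to 10.3 to 12.5 (-2.46 ± 0.253, adjusted p = 1.91e-07) and in GIMEN from 88.5 to 93.5 CPM to 27.2 to 49.1 (-1.40 ± 0.171, adjusted p = 1.9e-05). ANK3, the ankyrin that holds sodium channels at the axon initial segment, fell by 0.67 ± 0.202 in S2D30 (adjusted p = 0.00759) and by 3.51 ± 0.105 in GIMEN D30 (adjusted p = 1.8e-10), where it went from 32.4 to 34.1 CPM to 2.89 to 2.98. GEM and RRAD encode RGK GTPases, which bind calcium channel beta subunits and suppress calcium current. GEM measured 12.3, 11.8, 7.34 and 7.12 CPM untreated, 206, 197, 200 and 60.4 in S2D4 and 202 to 225 in S2D30, a rise of 4.50 ± 0.317 (adjusted p = 1.85e-09), and in GIMEN it rose from 43.9 to 46.1 CPM to 162 to 181 (1.91 ± 0.0618, adjusted p = 3.24e-10). RRAD rose from 1.02 to 1.51 CPM to 32.2 to 41.1 in S2D30 (4.78 ± 0.2, adjusted p = 3.81e-12). CACNG4, a calcium channel gamma relative that also trafficks AMPA receptors, fell from 42.8 to 62.1 CPM to 1.58 to 2.99 in S2D30 (-4.37 ± 0.245, adjusted p = 1.11e-10). REST, a repressor of many neuronal genes including sodium channel genes, was 27.2 to 37.8 CPM untreated, 56 to 72.1 in S2D4 and 64.7 to 70.3 in S2D30 (1.11 ± 0.115, adjusted p = 1.97e-07), and in GIMEN it was 63.5 to 70.9 CPM untreated and 61.2 to 67.9 at D30 (-0.07 ± 0.07, adjusted p = 0.416). Whether any of these proteins bears on the channel genes' levels was not tested.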

How the data were processed

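Total RNA was sequenced as paired reads of 150 bases per the labels' protocols, and the authors deposited raw counts per gene symbol for all 22 libraries. The aligner, counter, genome build, annotation and strand setting are not given in the sources used here. Counts were tested in R 4.3.3 with edgeR 4.0.16 (filterByExpr with a minimum count of 10 and a minimum total of 15, TMM scaling, quasi-likelihood F-test), in separate models for the 16 SK-N-AS libraries (15810 genes, 81 members tested), the 6 GIMEN libraries (13517 and 45) and the 14 untreated and 30-day libraries of both lines (16246 and 83, with a term for the difference between lines in the 30-day change). Adjusted p is Benjamini-Hochberg over all genes of a model. Printed CPM use a TMM scaling of all 22 libraries, fold changes use each model's own, and SE is the log2 fold change divided by the square root of F. The edgeR test was tried on simulated counts for S1D4, S2D30 and GIMEN D30 against untreated cells and for both comparisons between lines. The other comparisons and steps were not simulated. Counting intervals and floors (3 counts per library) cover counting error only, at 95% confidence. CPM per kb uses the union of GENCODE v29 exons on GRCh38, matched by symbol for 91 of 91 members. That union can be longer than any transcript the cells make.

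In each comparison the members named were those called, with a mean of at least 1 CPM in a compared group and groups that did not overlap, up to the 8 largest rises and 8 largest falls (5 each way, overlap aside, for the difference between lines). To these were added a fixed list of 17 sodium, calcium, potassium and HCN channel genes, leading members of families per kb and called partner genes of at least 5 CPM. Not every family leader in every group is named. Values of CACNB2, KCNAB1, KCNC4, KCNJ11, KCNMB3 and KCNMB4, and those of other members in a comparison where this rule did not name them, were chosen after they were seen. The difference between lines is not given for members under 10 counts in every library of a line. The members and lists were chosen with earlier results of these data known. Alternatives were DESeq2 1.42.0, other scalings, other filters and a replicate block. Further ones were a term for replicates 3 and 4 of untreated SK-N-AS and S1D4, a model of all 22 libraries, models of the compared groups alone and leaving out each library. Results of some genes are not reported here. No library was left out of the values given first.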

Additional observations from a re-analysis of the deposited data

Results flagged for a closer look

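In the groups of 4 SK-N-AS libraries, 23 values lay so far from the other 3 that Dixon's test at 95% marks them, among 154 group and gene combinations tested; chance marks about 1 in 20 groups. Of these, 15 were S2D4 replicate 4. It was above the other S2D4 libraries for KCNH8 (39.0 CPM), HCN2 (114.8), KCNH2 (26.9), CACNB3 (21.6), KCNT1 (4.10), KCNJ2 (7.60), HCN3 (33.1), KCNK6 (8.69) and KCNH7 (6.89). It was below them for SCN7A (0.192 CPM), SCN9A (37.7), CACNA2D1 (80.1), KCNMA1 (16.6), KCNG1 (21.5) and KCNK3 (1.12). S2D4 replicate 3 was high for KCNJ5 at 1.26 CPM, S2D4 replicate 2 high for KCNV1 at 1.63, and S1D4 replicate 3 low for KCNE4 at 0.673. Untreated replicate 4 was high for CACNA2D1 at 152.2 CPM, for KCNH7 at 19.2 (2.60 to 4.62 in the others) and for the summed members at 1228 CPM (1003 to 1027). Untreated replicate 1 was low for CACNB3 at 45.8 CPM, and S2D30 replicate 1 was low for KCNG1 at 121.1.

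The 30-day change differed between the lines, GIMEN minus SK-N-AS on the log2 scale in the edgeR test of the difference, for 12 named members with at least 10 counts in some library of each line. The difference was 4.97 for CACNA2D2, 3.51 for KCNK3, 3.05 for SCN9A, 2.97 for KCNT2, 1.78 for SCN2A and 1.68 for CACNB3. It was -2.01 for KCNG1, -3.03 for CACNA1E, -3.25 for CACNA1C, -3.67 for KCNN4 and -4.05 for CACNA1A. For CACNA2D3 it was -5.07, or -6.00 without D30 replicate 3. CACNA2D3 was not tested in the model of GIMEN libraries alone, and its GIMEN change rests on few counts. Its summed counts were 33 in untreated GIMEN and 3 at D30, a level 9.41 times lower (counting interval 2.95 to 48).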

How the results depend on the processing

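Counts of members called higher and lower stayed within 1.5 times under DESeq2, other scalings and filters, the replicate block and each left-out library, except that 6 instead of 10 were higher from S1D4 to S2D4 when those groups were fitted alone, and that 8 instead of 16 were higher at GIMEN D30 when a log2 fold change of at least 1 was also asked for. Leaving out single libraries gave 10 to 16 members higher and 10 to 13 lower at S1D4, 21 to 23 and 31 to 36 at S2D4, 22 to 26 and 33 to 39 at S2D30, 8 to 12 and 28 to 39 from S1D4 to S2D4, 17 to 23 and 21 to 26 from S2D4 to S2D30, 12 to 17 and 15 to 17 at GIMEN D30, 10 to 13 and 44 to 49 between the untreated lines, and 22 to 27 and 9 to 14 for the difference between lines.

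Replicate numbers were not taken to pair samples: same-number deviations correlated at -0.122 to 0.383 over 24 pairs of SK-N-AS groups and -0.0515 to -0.0177 in GIMEN. The largest were between untreated cells and S1D4, at 0.383, 0.346 and 0.377 for replicates 1, 2 and 4, with -0.0129 for replicate 3. With a term for replicates 3 and 4 of untreated cells and S1D4, 16 members were higher and 12 lower at S1D4, beside 3014 and 3754 of 15810 genes. With the replicate number as a block, 18 members were higher and 10 lower at S1D4 (64.3% of those called higher, against 53.8% without it), 22 and 32 at S2D4, 25 and 36 at S2D30, and 15 and 16 at GIMEN D30. Of all 15810 genes, 2880 were higher and 3571 lower at S1D4 with the block, 4932 and 5125 at S2D4, and 5429 and 5776 at S2D30. At GIMEN D30 4658 and 4763 of 13517 genes were higher and lower. With the block, CACNA1H between the untreated lines was -1.35.

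Under upper-quartile scaling, SCN3A and CACNA2D1 between the untreated lines were -0.014 and -0.082, and HCN2 for the difference between lines was 0.034. Among the genes named in each comparison by the rule above, leaving out single libraries turned the sign in 18 cases, none of them called with all libraries. CACNA1A ran from -0.099 to 0.22 at S1D4, -0.17 to 0.051 at S2D4 and -0.28 to 0.054 from S1D4 to S2D4. CACNA1H ran from -0.037 to 2.04 at S1D4, -0.13 to 0.95 from S2D4 to S2D30 and -3.14 to 0.95 between the untreated lines. CACNA2D1 ran from -0.15 to 0.17 at S2D4, -0.014 to 0.29 between the untreated lines and -0.12 to 0.18 for the difference between lines. HCN2 ran from -0.52 to 0.075 from S1D4 to S2D4, -0.34 to 0.25 from S2D4 to S2D30 and -0.12 to 0.048 for the difference between lines. SCN3A ran from -0.095 to 0.53 at S2D4 and -0.11 to 0.27 between the untreated lines. At S1D4, CACNB3 ran from -0.014 to 0.093, SCN2A from -0.17 to 0.042 and SCN8A from -0.14 to 0.35, and KCNMA1 at S2D30 from -0.071 to 0.28. The cause was not tested. Genes near 10 counts in a library, such as CACNA1H and CACNA1C, are limited by depth.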

Other observations

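CLCN7, CLCN3 and TPCN1, 3 genes outside the symbol rule picked after their values were seen, were higher at 30 days in both lines. CLCN7, a lysosomal chloride-proton exchanger, measured 168, 182, 190 and 186 CPM in untreated SK-N-AS, 245, 255, 267 and 517 in S2D4, and 711, 655, 660 and 727 in S2D30, a rise of 1.94 ± 0.186 (SE, log2 scale, adjusted p = 8.19e-08 by edgeR). In GIMEN it went from 141 to 145 CPM to 279 to 310 (1.02 ± 0.06, adjusted p = 4.36e-08). CLCN3, an endosomal exchanger, rose from 107 to 148 CPM to 203 to 207 in S2D30 (0.78 ± 0.121, adjusted p = 2.15e-05) and from 139 to 147 CPM to 270 to 308 in GIMEN D30 (1.01 ± 0.0698, adjusted p = 1.67e-07). TPCN1, an endolysosomal cation channel with voltage-sensing domains, rose from 39.4 to 54.6 CPM to 98.3 to 102 (1.10 ± 0.167, adjusted p = 1.73e-05) and from 62.2 to 68.8 CPM to 122 to 141 (0.98 ± 0.0677, adjusted p = 1.61e-07). Treated and untreated libraries did not overlap for these 3 genes in either line, as for 66.1% of all genes at S2D30 and 75.0% at GIMEN D30. Of the 6 CLC genes tested in each line, 3 were higher and 1 lower at S2D30 and 5 were higher and 1 lower at GIMEN D30, where 70.3% and 71.4% of all genes were called. Of the other voltage-sensing or related cation channels, the list that holds TPCN1, 2 were higher and 4 lower at each of these points, among 12 tested in SK-N-AS and 9 in GIMEN.

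NALCN, the sodium leak channel of neurons, was 0.583 to 1.04 CPM in untreated SK-N-AS and 0.776 to 0.998 in S2D30 (-0.03, adjusted p = 0.937). In GIMEN it measured 97.7, 94.3 and 89.7 CPM untreated and 48.4, 39.8 and 41.5 at D30, a fall of 1.12 ± 0.0765 (adjusted p = 1.43e-07). Of the 40 rows that matched the symbol rule and missed its count minimum, none exceeded 0.72 CPM in any library.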
